A study of Mus musculus with 45 samples.

Results

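The genes described here are Tspan7, Gpm6a, Ppap2b, Baalc, Cspg5, Fam107a and Lxn, 7 of the 24421 genes counted in each library of mouse medial prefrontal cortex. They were chosen from the data, because an earlier look found them lower in the isolated astrocyte fraction of ethanol mice than in that of water mice, along with astrocyte marker genes. For these genes the ethanol contrast within the isolated fraction is therefore described here without a test. Ethanol was tested in the whole-tissue homogenate, whose libraries that choice did not use. The contrast between fractions, averaged over both treatments, was tested too. Values of this contrast within water or within ethanol mice are a description, because each holds an isolated group that the choice compared. That choice favours high values in the water and low values in the ethanol isolated libraries. The co-variation of isolated libraries within a group is a description, since these are the libraries of the choice.

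The study asked how astrocytes respond to chronic ethanol drinking. All mice were of the strain C57BL/6J. For 72 days ethanol mice were offered 15% (v/v) ethanol every other day, with tissue taken 24 h after the final day of drinking, while control mice were given water over the same 72 days. The labels used here state neither age nor sex. From each tissue suspension 5% was set aside as total homogenate, and astrocytes were captured from the remainder with ACSA2 beads after removal of myelin on 25% Percoll. ACSA2 is an astrocyte surface epitope on the protein ATP1B2. The counts came from 10 isolated fractions of water mice, 10 isolated fractions of ethanol mice, 12 homogenates of water mice and 12 homogenates of ethanol mice. Both fractions were available for 20 of the 24 mice, with the mouse taken from the number in each label.

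Astrocytes take up glutamate, supply neurons with metabolites and enclose synapses and blood vessels with fine processes, so that much of their specialised gene expression serves the plasma membrane and the extracellular space around it. Tspan7 encodes a tetraspanin, a protein with several membrane spans that gathers other membrane proteins into microdomains. Gpm6a encodes the proteolipid M6a, a membrane glycoprotein abundant in neurons, where it takes part in the outgrowth of neurites and filopodia. Ppap2b, now named Plpp3, encodes lipid phosphate phosphatase 3, an ectoenzyme that dephosphorylates lysophosphatidic acid and sphingosine 1-phosphate outside the cell. Baalc encodes a small protein that is anchored to membranes by lipid groups. Cspg5 encodes neuroglycan C, a transmembrane chondroitin sulfate proteoglycan. Fam107a encodes an actin-associated, stress-responsive protein, and Lxn encodes latexin, an inhibitor of metallocarboxypeptidases. The last 2 proteins are intracellular, so the name "membrane and matrix" covers only the first 5 of the list.

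The genes lie on different chromosomes of the mouse build GRCm38, in the GENCODE M21 annotation. Tspan7 spans chrX:10485158-10596605 on the plus strand, Gpm6a chr8:54954843-55060871 (plus), Ppap2b chr4:105157347-105232764 (plus) and Baalc chr15:38933144-38952912 (plus). Cspg5 spans chr9:110243783-110262576 (plus), Fam107a chr14:8296274-8318023 (minus) and Lxn chr3:67457998-67463926 (minus). The exons of Lxn share 63 bases with Gfm1 on the opposite strand, and those of Baalc share 346 bases with Gm49097 on the opposite strand. No source used here says whether reads were counted by strand, so the counts of these 2 genes are uncertain to that extent.

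RefSeq promoter windows on GRCm38.p6 were available for Tspan7, Gpm6a, Ppap2b, Fam107a and Lxn. Those of the member with the highest isolated-to-homogenate ratio (Ppap2b), the member with the lowest (Gpm6a, with 2 starts) and the member that moved most beyond the astrocyte references (Lxn) are shown, 5′ to 3′ on the gene's strand, each from 250 bases before to 50 bases after a RefSeq start. Capitals mark letters that match a motif on either strand.
Ppap2b, chr4:105157097-105157396, plus strand: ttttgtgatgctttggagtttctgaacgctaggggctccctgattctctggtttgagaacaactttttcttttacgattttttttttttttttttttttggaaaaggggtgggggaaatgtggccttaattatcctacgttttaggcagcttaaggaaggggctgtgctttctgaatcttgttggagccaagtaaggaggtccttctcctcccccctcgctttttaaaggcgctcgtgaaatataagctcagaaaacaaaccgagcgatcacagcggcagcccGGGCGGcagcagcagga
Gpm6a, upstream start, chr8:54779184-54779483, plus strand: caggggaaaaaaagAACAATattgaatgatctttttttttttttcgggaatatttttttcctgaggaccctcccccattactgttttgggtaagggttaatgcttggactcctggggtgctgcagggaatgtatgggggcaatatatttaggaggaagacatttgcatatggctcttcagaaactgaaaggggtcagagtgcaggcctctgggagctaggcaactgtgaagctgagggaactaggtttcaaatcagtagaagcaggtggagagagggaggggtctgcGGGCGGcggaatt
Gpm6a, downstream start, chr8:54954478-54954777, plus strand: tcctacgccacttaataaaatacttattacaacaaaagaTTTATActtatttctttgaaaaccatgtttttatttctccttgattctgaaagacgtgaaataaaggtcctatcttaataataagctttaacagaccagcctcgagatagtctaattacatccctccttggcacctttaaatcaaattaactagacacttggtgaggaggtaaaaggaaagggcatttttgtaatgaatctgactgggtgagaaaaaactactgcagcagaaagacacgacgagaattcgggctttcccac
Lxn, chr3:67463858-67464157, minus strand: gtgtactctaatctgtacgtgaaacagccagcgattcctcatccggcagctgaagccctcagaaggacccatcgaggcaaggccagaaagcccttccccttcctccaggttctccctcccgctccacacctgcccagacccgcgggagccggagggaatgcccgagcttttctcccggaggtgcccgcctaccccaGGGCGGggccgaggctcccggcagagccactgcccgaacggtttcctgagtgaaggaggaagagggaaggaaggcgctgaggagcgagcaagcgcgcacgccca
The motifs searched on both strands were the GC box GGGCGG, the SOX core AACAAT, the TATA box TATAAA and the AP-1 site TGANTCA, and no matches of different motifs overlapped. The GC box was found in 6 of the 8 member promoters (Ppap2b, Tspan7, Lxn, 1 of the 2 for Gpm6a and 2 overlapping windows of the 3 for Fam107a), against 35.7% of all 32851 promoters of the same length. The SOX core occurred only in the upstream Gpm6a promoter (10.7% of all promoters) and the TATA box letters only in the downstream one (13.6%, here on the reverse strand and far upstream of the start). The AP-1 site occurred in none of the 8 (7.81% of all). A match is a run of letters and not a measured binding site.

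Total counts over genes ran from 504492 to 3248804 in isolated libraries and from 3673811 to 9109247 in homogenates. All 5 libraries under 1000000 counts were isolated fractions of water mice. The share of unaligned reads was between 37.4% and 90.3% in isolated libraries, and between 18.0% and 55.2% in homogenates. Against the homogenate, and averaged over treatments, 41.1% of 14087 genes were called higher in the isolated fraction and 44.5% lower (edgeR, false discovery rate, FDR, under 0.05). Of 23 astrocyte markers 19 were higher and 4 lower. The lower ones were Gfap (log2 fold change −2.22 ± 0.21, SE), S100b (−0.31 ± 0.12), Ppp1r3c (−0.26 ± 0.11) and Slc1a2 (−0.23 ± 0.10). All 15 neuron markers were lower, but all 10 microglia, all 10 oligodendrocyte, all 10 endothelial and all 9 mural markers were higher as well. The isolated fraction thus held RNA of these cell types as well. No marker of any list was at 0 in every library of a group.

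Levels are given as CPM, a gene's reads per 1000000 reads counted over all genes of the library. The CPM of Tspan7 in water isolated libraries ran from 485 through a median of 845 to 1369, and in ethanol isolated libraries from 498 through 720 to 842. In homogenates it ran from 730 through 855 to 996 with water and from 809 through 913 to 1029 with ethanol. The 4 groups overlapped, with 5 water isolated libraries above every ethanol isolated one.

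Gpm6a was the gene most shifted towards the homogenate. Its isolated CPM ran from 340 through a median of 502 to 835 with water and from 322 through 470 to 565 with ethanol. In homogenates it ran from 691 through 1162 to 1253 with water and from 1072 through 1172 to 1277 with ethanol. The lowest homogenate value, from water mouse 68, stood well below the next one at 1040 CPM and was the only homogenate value inside the isolated range.

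Ppap2b showed the opposite distribution. Its isolated CPM ran from 651 through a median of 1266 to 2503 with water and from 760 through 1135 to 1321 with ethanol, while its homogenate CPM ran from 283 through 394 to 497 with water and from 309 through 375 to 449 with ethanol. No isolated library fell into the homogenate range, and the water and ethanol libraries overlapped within each fraction.

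Baalc was lower in the isolated fraction, at 94.7, 161 and 318 CPM (lowest, median, highest) with water and 81.1, 135 and 189 with ethanol. Its homogenate CPM was 231, 306 and 394 with water and 233, 299 and 406 with ethanol. Only the highest isolated library, from water mouse 73, lay inside the homogenate range.

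Cspg5, the chondroitin sulfate proteoglycan, had isolated CPM of 296, 605 and 1109 with water and of 364, 545 and 692 with ethanol. Its homogenate CPM lay in a narrow band of 348, 406 and 458 with water and 364, 426 and 468 with ethanol. The isolated range enclosed the homogenate band completely.

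Fam107a, the actin-associated member, had isolated CPM of 495, 803 and 1592 with water and of 419, 715 and 941 with ethanol, and homogenate CPM of 351, 477 and 614 with water and 388, 471 and 612 with ethanol. Lxn was the least abundant member, with isolated CPM of 25.2, 38.3 and 57.2 with water and 15.5, 25.6 and 41.2 with ethanol, and homogenate CPM of 12.8, 19.0 and 25.4 with water and 14.9, 18.2 and 22.4 with ethanol. Its isolated values rested on 17 to 168 reads a library with water and 17 to 95 with ethanol, fewer than for any other member.

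**Figure D1:**
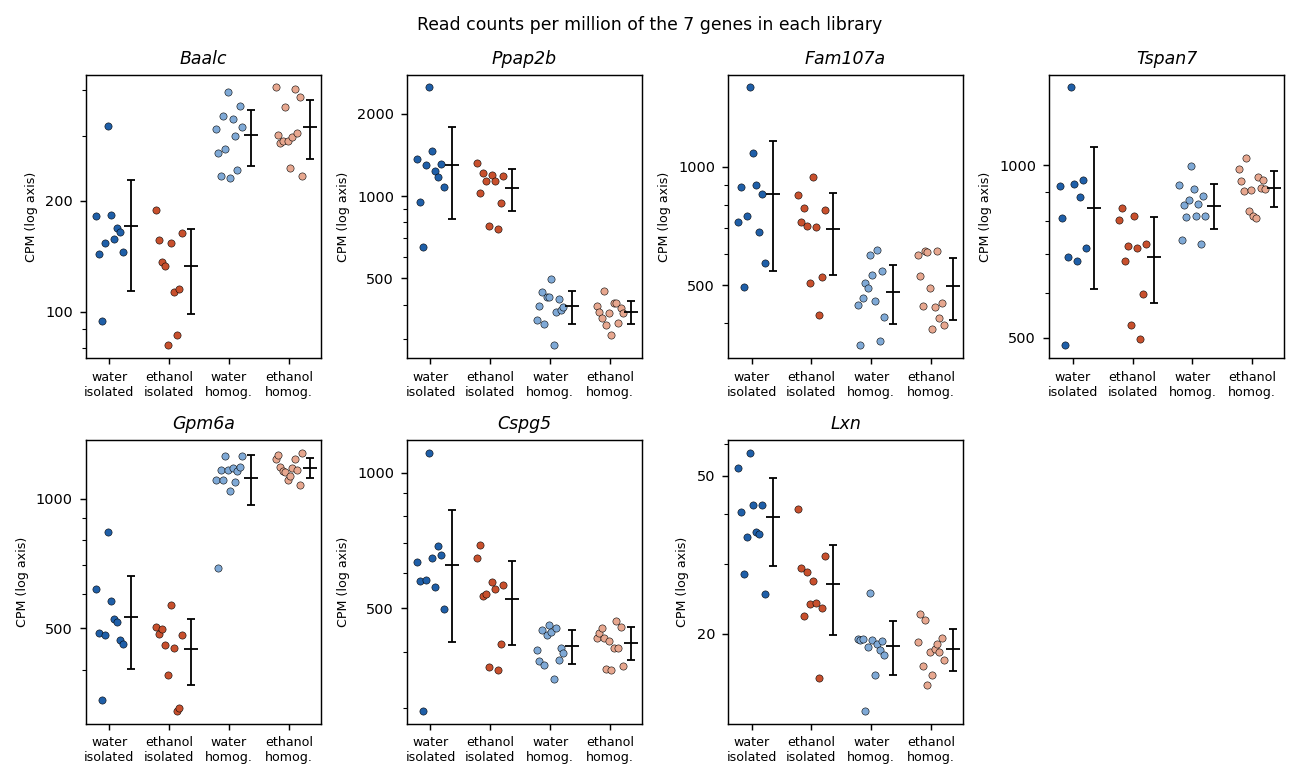
CPM (log axis, a separate range for each gene) of the 7 genes in every library of the 4 groups; points are libraries and bars are the mean ± SD. Ppap2b separated the fractions completely, Gpm6a did so apart from 1 homogenate at 691 CPM, and all genes had overlapping water and ethanol libraries in both fractions.

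Per kilobase of merged exon the isolated water libraries ordered the genes as Ppap2b (413 ± 153 CPM per kb, SD, n = 10), Fam107a (221 ± 80.3), Gpm6a (165 ± 40.4), Tspan7 (119 ± 33.2), Cspg5 (61.9 ± 20.2), Baalc (41.3 ± 13.9) and Lxn (26.2 ± 6.51). The ranges of every pair of neighbours in this order overlapped. The ethanol isolated libraries gave the same order, and there Tspan7 (70.5 to 119 CPM per kb) and Cspg5 (36.1 to 68.7) did not overlap. In water homogenates Gpm6a came first at 347 ± 46.0 CPM per kb (SD, n = 12). Ppap2b (125 ± 17.5), Fam107a (124 ± 21.5) and Tspan7 (120 ± 10.7) followed and could not be ordered beyond their spread, and Baalc (72.6 ± 12.5), Cspg5 (40.8 ± 3.54) and Lxn (12.4 ± 1.91) came after them with ranges that did not overlap one another. Levels per kilobase use GENCODE exon lengths, which may differ from the annotation used for counting. The aligner named in the processing notes, Bowtie2, does not split reads across exon junctions, so where reads were aligned to the genome those spanning a junction could be lost to a different degree in each gene (Cspg5 has 4 merged exons over 10074 bases, Lxn 6 over 1508), and the order between genes is uncertain to that extent.

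Within the isolated fraction, the contrast by which the genes were chosen, all 7 had a lower mean CPM in ethanol than in water mice, with differences from −32.4% (Lxn) to −15.7% (Gpm6a). Of all 11122 genes fitted in this contrast, 50.4% were below 0 on the log2 scale, and nothing is read from the members' own direction. No gene passed FDR under 0.05 in it (edgeR, 0% higher, 0% lower), and 600 genes (5.39%) had an unadjusted p under 0.05. The fitted log2 fold changes (edgeR, ethanol over water, ± SE, n = 10 and 10) were −0.60 ± 0.15 for Lxn, −0.39 ± 0.16 for Baalc, −0.32 ± 0.16 for Fam107a, −0.30 ± 0.13 for Tspan7, −0.30 ± 0.15 for Ppap2b, −0.27 ± 0.12 for Gpm6a and −0.27 ± 0.15 for Cspg5. For the astrocyte references they were −0.31 ± 0.16 (Aldh1l1, a folate enzyme), −0.23 ± 0.12 (Aldoc, aldolase C) and −0.29 ± 0.15 (Slc1a3, the glutamate transporter GLAST). In bulk RNA, fewer astrocytes in a fraction and less RNA of a gene per astrocyte cannot be told apart.

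All 7 members had overlapping water and ethanol ranges (0% of the tested genes lay wholly apart, in either direction), with 8 to 10 of the 10 ethanol libraries below the water mean. The water library of mouse 73 was the highest of its group for all 7 genes and that of mouse 70 the lowest for 6 of them. Without mouse 73 the log2 difference was −0.15 for Cspg5, −0.16 for Ppap2b, −0.19 for Fam107a, −0.18 for Gpm6a, −0.21 for Tspan7, −0.25 for Baalc and −0.52 for Lxn. Without the 5 shallow water libraries it was larger, from −0.38 for Tspan7 to −0.67 for Lxn. That fit dropped mouse 70 and kept mouse 73 in a smaller water group, so depth and the weight of mouse 73 cannot be told apart in it.

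Markers of some other cell types lay on 1 side of 0 in the same contrast. All 23 astrocyte markers were below 0 (median log2 fold change −0.23), as were all 13 fitted neuron markers (−0.35) and all 10 microglia markers (−0.18), while all 9 mural markers (0.55) and all 10 endothelial markers (0.14) were above 0. The endothelial values ran only from 0.04 ± 0.19 (Itm2a, SE) to 0.25 ± 0.16 (Esam). Each of the other 4 lists also held a value near 0 against its SE. These included Acta2 (mural, 0.01 ± 0.22), Aif1 (microglia, −0.01 ± 0.21), S100b (astrocyte, −0.04 ± 0.22) and Gad1 (neuron, −0.05 ± 0.47). Over all genes 50.4% were below 0. Oligodendrocyte (2 of 10 below 0, median 0.06), oligodendrocyte precursor (3 of 7, 0.04) and fibroblast markers (1 of 3, 0.03) went both ways. The summed CPM of the astrocyte list ran from 15287 through a median of 23470 to 41048 in water and from 14379 through 22670 to 26334 in ethanol libraries. The summed mural CPM ran from 1225 through 1629 to 2158 in water and from 1653 through 2533 to 3374 in ethanol libraries. The part of these shifts in the members' difference was not tested.

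**Figure D2:**
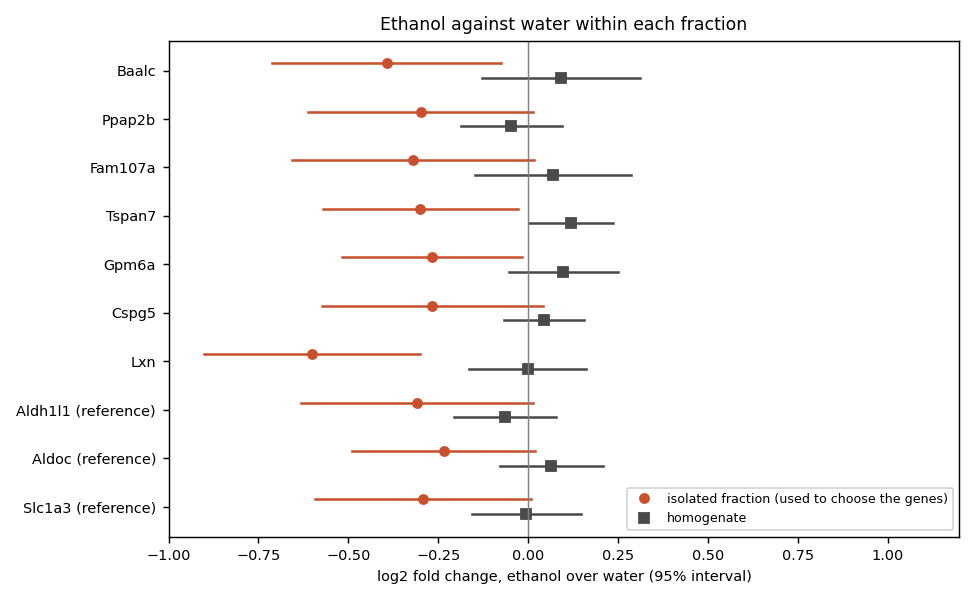
Fitted log2 fold change of ethanol over water with its 95% interval for the 7 genes and the 3 references, in the isolated fraction (circles, the contrast that chose the genes) and in the homogenate (squares). The isolated values lie between −0.60 and −0.23, and the homogenate values lie between −0.06 and 0.12. No gene passed FDR under 0.05 in either fraction (edgeR), and the difference between the fractions was not tested.

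Dividing each gene's CPM by the geometric mean CPM of Aldh1l1, Aldoc and Slc1a3 in the same library left little difference between treatments for 6 of the genes. The geometric mean itself was 664 ± 190 CPM (SD, n = 10) in water and 557 ± 102 in ethanol isolated libraries. Their mean ratio in ethanol libraries differed from that in water libraries by between −7.65% (Baalc) and 0.962% (Cspg5). The Baalc ratio ran from 0.229 through a median of 0.257 to 0.286 with water and from 0.189 through 0.234 to 0.279 with ethanol, with 4 ethanol libraries below every water library. On a scale set by the references the fitted log2 differences were −0.11 ± 0.13 (Baalc), −0.05 ± 0.13 (Fam107a), −0.03 ± 0.12 (Tspan7), −0.01 ± 0.13 (Gpm6a), −0.01 ± 0.13 (Ppap2b) and 0.01 ± 0.12 (Cspg5), and 6.29% of all genes were below 0 there, with the median of all genes at 0.25. The genes were chosen in these libraries as falling along with astrocyte markers, so nothing is read from the small differences left after this division.

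Lxn differed most, both in this ratio and in the CPM contrast that chose the genes. Its ratio to the references ran from 0.0450 through a median of 0.0579 to 0.0807 in water isolated libraries and from 0.0385 through 0.0473 to 0.0609 in ethanol isolated libraries, and 9 of 10 ethanol libraries lay below the water mean. The mean ratio with ethanol differed by −21.3% from that with water and the fitted difference on the reference scale was −0.32 ± 0.15 (log2, SE). Against each reference singly the median ratio was 0.275 with water and 0.218 with ethanol for Aldh1l1, 0.0385 and 0.0304 for Aldoc, and 0.0181 and 0.0156 for Slc1a3. The ranges overlapped for each of the 3. In homogenates the Lxn ratio was 0.0616 ± 0.00784 (SD, n = 12) with water and 0.0617 ± 0.00582 with ethanol.

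**Figure D3:**
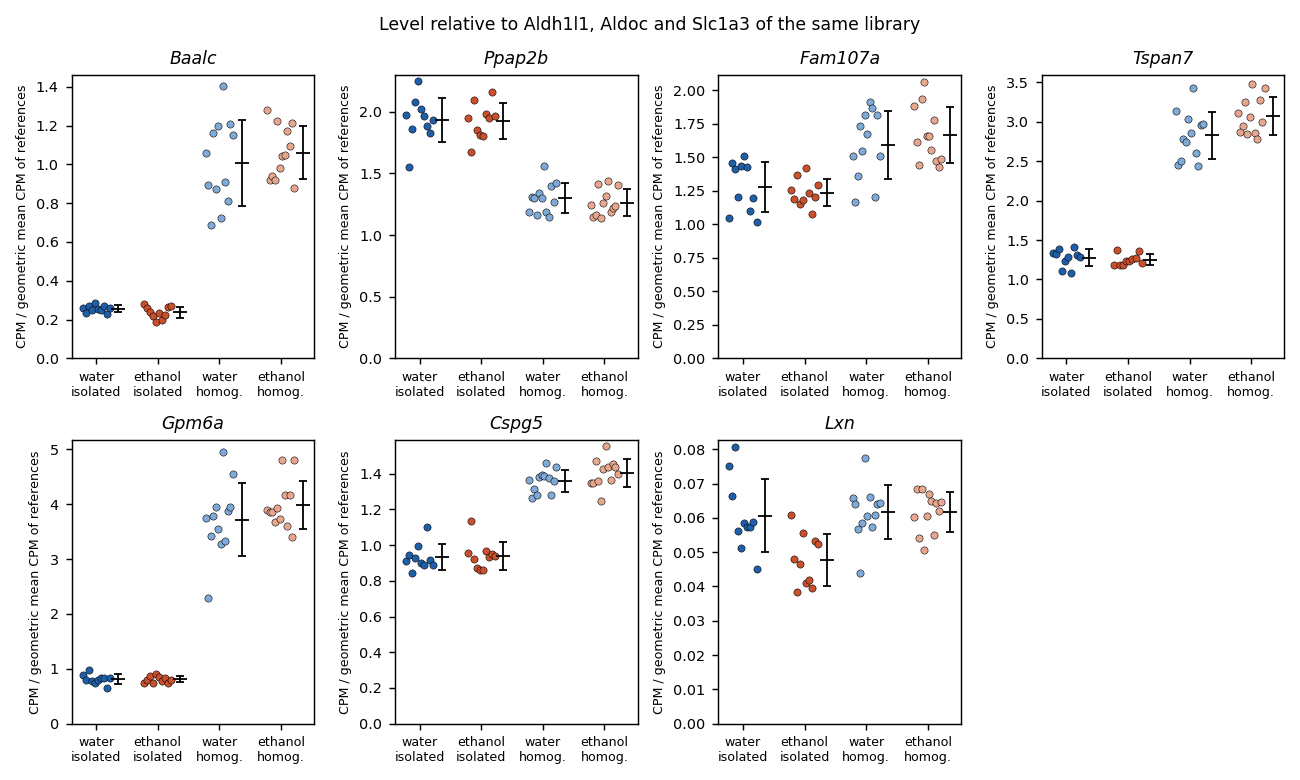
CPM of each gene divided by the geometric mean CPM of Aldh1l1, Aldoc and Slc1a3 in the same library (linear axes from 0), with points for libraries and bars for mean ± SD. The isolated water and ethanol libraries overlap for all genes. The relative difference in means is largest for Lxn (0.0607 with water and 0.0478 with ethanol), followed by Baalc (0.256 and 0.237). Only Ppap2b has higher ratios in the isolated fraction than in the homogenate.

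Ethanol was tested in the homogenates, libraries that the choice of the genes did not use, although they came from largely the same mice. None of the 7 members passed FDR under 0.05 (edgeR quasi-likelihood, 12 water and 12 ethanol libraries), and neither did any of the 13576 genes tested (0% higher, 0% lower). At an unadjusted p under 0.05 there were 467 genes (3.44%), among them 1 member, and DESeq2 also called 0 genes, with 478 below that p. That member, Tspan7, had a log2 fold change of 0.12 ± 0.06 (95% interval 0.00 to 0.24, edgeR FDR 0.979), with 3 of 12 ethanol libraries below the water mean. The other estimates were 0.10 ± 0.07 for Gpm6a (−0.05 to 0.25), 0.09 ± 0.11 for Baalc (−0.13 to 0.31), 0.07 ± 0.11 for Fam107a (−0.15 to 0.29), 0.04 ± 0.05 for Cspg5 (−0.07 to 0.16), −0.00 ± 0.08 for Lxn (−0.16 to 0.16) and −0.05 ± 0.07 for Ppap2b (−0.19 to 0.09). Apart from Ppap2b and Lxn the estimates lay above 0, against 47.7% of all genes, and the median over the members was 0.07, against −0.01 over all genes. The lowest bound of the 7 intervals was −0.19 (Ppap2b). The difference between the 2 fractions' ethanol effects was not tested, because the choice of the genes used one of them.

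The gene families around the members showed no homogenate call either. Of the tetraspanins (22 tested), the lipid phosphate phosphatases and relatives (11), the genes of lysophosphatidic acid and sphingosine phosphate signalling (15), the chondroitin sulfate proteoglycans and partners (16) and the metallocarboxypeptidases (6), 0 passed in either direction. Their median log2 fold changes were 0.01, 0.02, −0.01, −0.05 and 0.01.

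Between fractions, averaged over water and ethanol mice, the members split. Of 14087 genes tested 41.1% were called higher in the isolated fraction and 44.5% lower (edgeR FDR under 0.05), and of the members 4 were higher and 3 lower, a split near that background. Ppap2b was higher by 1.48 ± 0.08 on the log2 scale (FDR 3.82e-22), Lxn by 0.69 ± 0.08 (3.66e-11), Fam107a by 0.52 ± 0.10 (4.51e-06) and Cspg5 by 0.33 ± 0.08 (0.00011). Gpm6a was lower by a log2 value of −1.37 ± 0.07 (FDR 4.41e-23), Baalc of −1.17 ± 0.10 (1.41e-15) and Tspan7 of −0.34 ± 0.07 (1.36e-05). Within water mice alone Tspan7 was at −0.13 (95% interval −0.32 to 0.07), against −0.55 within ethanol mice. The other 6 had the averaged direction in water mice, with intervals that did not include 0, whereas within ethanol mice Cspg5 was at 0.17 (−0.04 to 0.39). These values within a treatment are a description, because each holds an isolated group that the choice used. The references were higher by 1.06 ± 0.08 (Slc1a3), 0.85 ± 0.08 (Aldh1l1) and 0.74 ± 0.07 (Aldoc). Ppap2b alone among the members had a larger enrichment than each reference.

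The direction of 3 members depended on the scaling. With libraries scaled by the references, Ppap2b stayed higher at 0.59 ± 0.06, but Cspg5 (−0.56 ± 0.05), Fam107a (−0.37 ± 0.07) and Lxn (−0.20 ± 0.07) turned lower, and Tspan7 (−1.22 ± 0.06), Baalc (−2.07 ± 0.08) and Gpm6a (−2.25 ± 0.08) were lower still (edgeR FDR at most 0.00854). That scaling moved the median of all genes from −0.06 to −0.93 and called 18% of genes higher and 71.3% lower. Within water mice the value on this scale was −0.05 for Lxn (95% interval −0.26 to 0.16), against −0.36 (−0.57 to −0.15) within ethanol mice. The choice of the genes compared these isolated groups, so nothing is read from this difference. The other 5 members below 0 were so in water mice as well, from −0.31 (Fam107a, −0.52 to −0.11) to −2.20 (Gpm6a, −2.41 to −1.98). The ratio of Gpm6a to the references was 0.813 ± 0.0836 (SD, n = 10) in water isolated libraries and 3.72 ± 0.666 (n = 12) in water homogenates, and that of Baalc was 0.256 ± 0.0172 and 1.01 ± 0.222.

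**Figure D4:**
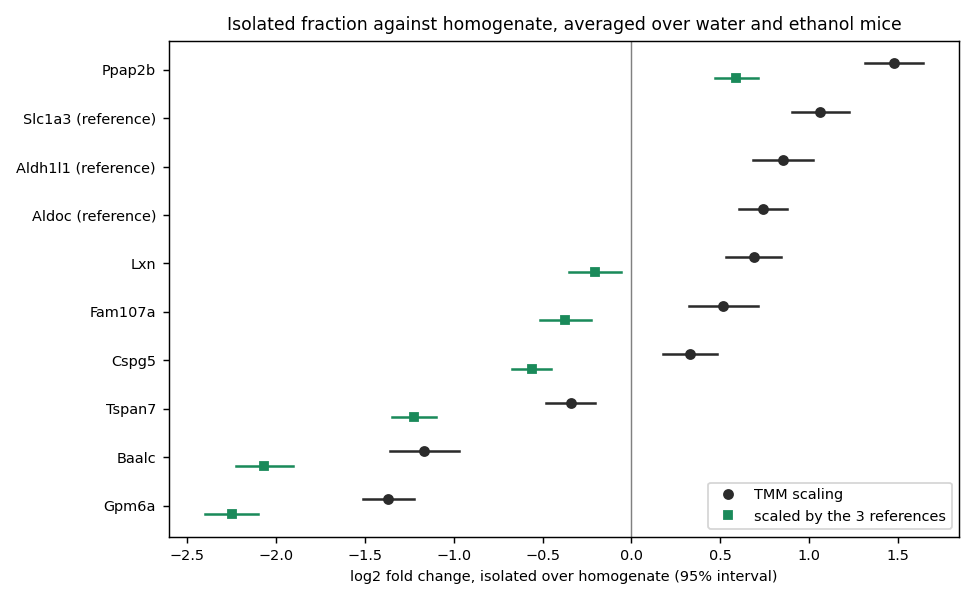
Log2 fold change of the isolated fraction over the homogenate, averaged over treatments, with 95% intervals, for the 7 genes and 3 references; circles use TMM scaling and squares scale the libraries by the 3 references. Ppap2b is higher on both scales (1.48 and 0.59), whereas Lxn, Fam107a and Cspg5 change sign.

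The 20 animals with both fractions were also compared mouse by mouse. The log2 ratio of isolated to homogenate CPM was above 0 for Ppap2b in 10 of 10 water and 10 of 10 ethanol mice, with medians of 1.66 and 1.46. It was below 0 for Gpm6a in all of them, with medians of −1.21 and −1.39. Lxn was above 0 in 10 water and 9 ethanol mice (medians 1.10 and 0.41), Fam107a in 9 and 10 (0.79 and 0.42) and Cspg5 in 9 and 8 (0.54 and 0.28). Tspan7 was above 0 in 5 water mice and 1 ethanol mouse (0.01 and −0.41), and Baalc in 1 and 0 (−0.86 and −1.11). The medians were lower with ethanol for each of the 7, which follows from the contrast that chose them. Across fractions, Ppap2b was the only 1 of the 7 members without overlap of CPM. Over all tested genes, 14.9% lay wholly higher in the isolated fraction and 16.9% wholly lower, so nothing is read from this count.

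The related genes were set beside the shares over all genes given above, 41.1% higher and 44.5% lower, without a test against them. Among tetraspanins other than Tspan7, 14 of 22 were called higher and 6 lower in the isolated fraction (median log2 fold change 1.51, against −0.06 for all genes), and those with the lowest p were the leukocyte tetraspanins Cd53 (4.31 ± 0.10) and Cd37 (3.63 ± 0.11), Cd81 (1.79 ± 0.05) and Cd9 (3.38 ± 0.10); scaled by the references, 12 were higher and 9 lower. Gpm6b, the closest relative of Gpm6a, had a value of −0.11 ± 0.06 that did not pass (edgeR FDR 0.0825) but passed as lower on the reference scale (−0.96 ± 0.07).

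Ppap2b differed from most of its relatives. Of the other 11 lipid phosphate phosphatases and relatives, 1 was higher, Ppap2c (2.94 ± 0.17), and 9 were lower (median −1.82), among them Lppr2 (−3.12 ± 0.08), Lppr3 (−3.52 ± 0.14) and Ppapdc2 (−1.82 ± 0.10); on the reference scale 1 was higher and 10 lower. Genes that make, degrade or sense its substrates were mostly higher, 15 of 17 against 2 lower (median 1.94), and 11 against 3 on the reference scale. They included the sphingosine 1-phosphate lyase Sgpl1 (2.21 ± 0.08) and the receptors Lpar6 (2.72 ± 0.10), S1pr3 (2.21 ± 0.09) and S1pr4 (3.82 ± 0.17).

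Of 16 chondroitin sulfate proteoglycans and partners other than Cspg5, 7 were higher and 8 lower (median −0.31), and 6 and 10 on the reference scale. Cspg4, the precursor-cell proteoglycan NG2, was higher by 1.73 ± 0.06, the neuregulin receptor Erbb3 by 3.03 ± 0.12 and brevican (Bcan) by 1.43 ± 0.06, while the perineuronal link protein Hapln4 was at −5.20 ± 0.21. Of 6 tested genes of the metallocarboxypeptidase list, 3 were higher (Cpm 3.16 ± 0.13, Cpq 1.04 ± 0.10 and Cpd 0.73 ± 0.06) and 3 lower, including Cpe (−0.87 ± 0.07). On the reference scale 1 was higher and 3 were lower. No latexin relative was among the genes tested. Fam107b, the relative of Fam107a, was higher by 1.96 ± 0.09, and by 1.12 ± 0.12 on the reference scale.

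Within a group, isolated libraries with higher astrocyte references also had higher levels of the members. The log2 CPM of each gene was fitted on the centred log2 CPM of the 3 references within water and ethanol groups, so that a slope of 1 means that gene and references change by the same factor from library to library. All 7 members had a positive slope. Of 11119 genes 7.59% were called positive and 8.89% negative (edgeR FDR under 0.05), and nothing is read from the members' share, because they were chosen in these libraries as falling along with astrocyte markers. The slopes were 1.142 ± 0.13 for Fam107a, 1.13 ± 0.13 for Baalc, 1.11 ± 0.11 for Cspg5, 1.08 ± 0.11 for Ppap2b, 0.92 ± 0.11 for Tspan7, 0.82 ± 0.11 for Gpm6a and 0.81 ± 0.19 for Lxn (20 libraries). The value 1 lay inside the 95% interval of each of these slopes. This describes the libraries of the choice, and whether the members change in proportion to the references was not tested. The members' median slope was 1.08, against 0.03 over all genes.

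The water libraries of mice 73 and 70, the highest and lowest in the references, extended the range, and mouse 73 was also the highest water library for every member. Without mouse 73 the slopes ran from 0.80 (Gpm6a) to 1.10 (Fam107a), with Lxn at 0.90 ± 0.26. Of the astrocyte list without the references, 18 of 20 had a positive slope that passed (median 0.95), while 10 of 10 microglia markers had a negative one (−0.83) and 0 of 10 endothelial and 0 of 9 mural markers passed in either direction. Positive slopes were not limited to astrocyte genes: 2 of 10 oligodendrocyte markers, Mobp (0.69 ± 0.16) and Cldn11 (0.51 ± 0.17), and 1 of 13 neuron markers, Map2 (0.54 ± 0.15), also passed. Gene and references share the library's scaling, and their common dependence on depth was not tested.

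In homogenates, which the choice did not use, the slopes were tested. No gene of 13573 passed (0% positive, 0% negative), with 1207 genes (8.89%) below an unadjusted p of 0.05, 5 members among them. The slopes were 1.23 ± 0.32 for Fam107a, 0.78 ± 0.22 for Ppap2b, 0.74 ± 0.15 for Cspg5 (edgeR FDR 0.0533), 0.72 ± 0.27 for Lxn, 0.67 ± 0.39 for Baalc, 0.46 ± 0.20 for Tspan7 and 0.09 ± 0.28 for Gpm6a (24 libraries). Positive slopes were not limited to astrocyte genes in homogenates either. Of 20 astrocyte, 10 microglia, 10 endothelial, 9 mural and 5 fibroblast markers, 0 lay below 0 (medians 0.82, 0.52, 0.83, 0.79 and 1.26). Below 0 were 10 of 10 oligodendrocyte (−1.76), 9 of 15 neuron (−0.16) and 3 of 8 oligodendrocyte precursor markers (0.15). The references varied less in homogenates (SD 0.14 log2 units against 0.32 in isolated libraries). A test of the difference between the fractions' slopes was added after the members' slopes had been seen. It called 0 members and 0.433% of 14084 genes. Because it rests in part on the isolated libraries of the choice, nothing is read from it for the members. Their largest difference was 0.70 ± 0.28, for Gpm6a.

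**Figure D5:**
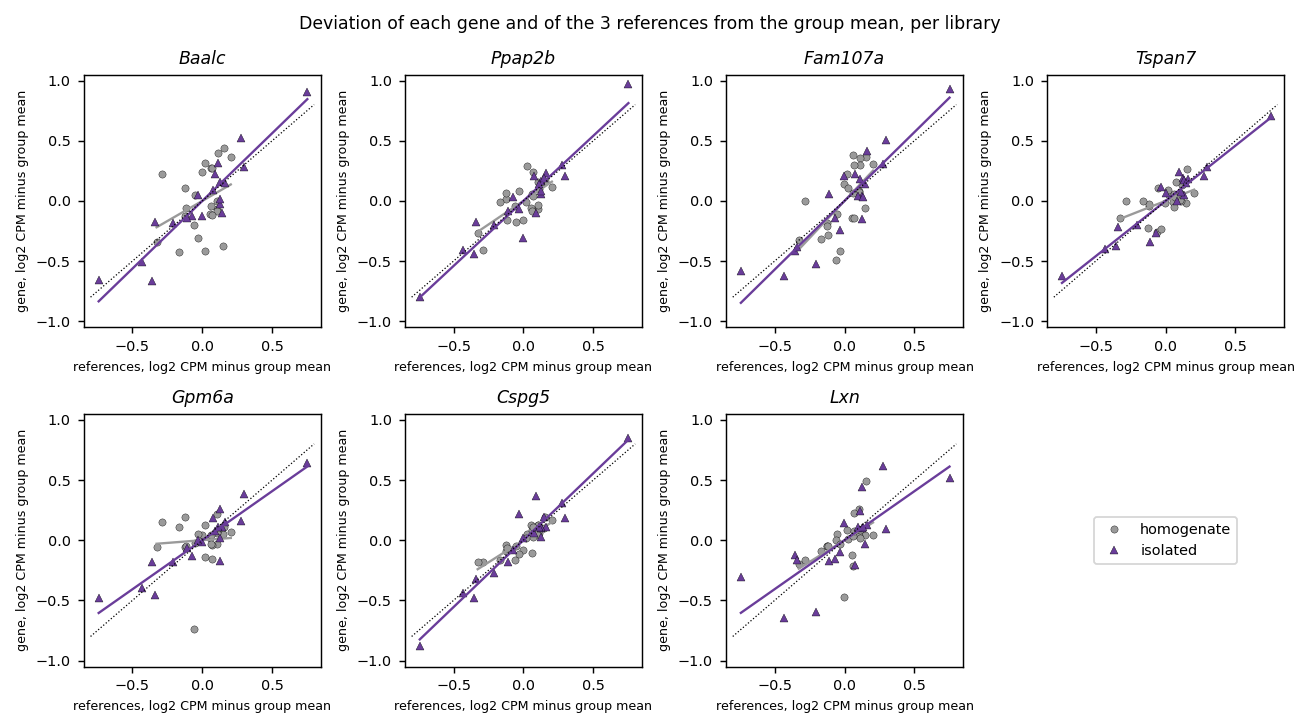
Deviation of each gene's log2 CPM from its group mean (vertical) against that of the 3 references (horizontal) in 20 isolated libraries (triangles) and 24 homogenates (circles), with fitted lines; the dotted line has a slope of 1. Isolated slopes run from 0.81 to 1.142, and in homogenates Gpm6a is flat at 0.09 while Fam107a is at 1.23.

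The spread between homogenates within a group was small for Cspg5 (SD 0.12 log2 units, lower in only 6.71% of genes) and Tspan7 (0.13, 8.32%). It was larger for Baalc (0.27, 61.6%) and Fam107a (0.27, 60.8%). In isolated libraries the members' SDs ran from 0.28 (Gpm6a) to 0.41 (Fam107a).

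The genes most like each member over the 20 isolated libraries were named by the Pearson correlation of group-centred log2 CPM among 9444 candidates, as a description of libraries that share depth and cell content. Tspan7 and Cspg5 were each other's nearest gene (r = 0.96), and Tspan7 was next nearest to Glul (0.95), glutamine synthetase, and Clu (0.94), clusterin. Cspg5 was next nearest to Acsbg1 (0.95), an acyl-CoA synthetase, and Prdx6 (0.95), a peroxiredoxin. Ppap2b was nearest to the LIM homeobox gene Lhx2 (0.94), to Atp1b2 (0.94), whose product carries the ACSA2 epitope, and to Slc1a3 (0.93). Among the genes nearest to Gpm6a were Slc1a3 (0.92) and Igsf11 (0.90), an adhesion protein. Baalc was nearest to Hacd3 (0.92), Cspg5 (0.92) and Naaa (0.92), Fam107a to AI464131 (0.94), F3 (0.92), the coagulation tissue factor, and Ppp1r3g (0.92), a glycogen-targeting subunit. Lxn had the weakest partners, Nkain4 (0.87), Pantr1 (0.85) and Hadh (0.84).

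In the 24 homogenates some of these pairs were not alike. Gpm6a and Slc1a3 had r = −0.07 and Baalc and Hacd3 −0.20, whereas Ppap2b and Slc1a3 kept 0.89 and Tspan7 and Cspg5 0.65. Over the 21 pairs among the members the correlation ran from 0.67 to 0.96 (median 0.86) in isolated libraries and from −0.14 to 0.72 (median 0.41) in homogenates.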

How the data were processed

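The authors deposited 1 table of raw counts a library, with 1 value for each gene symbol, made with HTSeq 0.5.3p9 after bcl2fastq 2.17, cutadapt 1.8, Bowtie2 2.2.5 and Picard 1.141 on mm10, per the submitters' processing notes, which also name DESeq2. The sources used here state neither strand setting nor gene annotation nor the handling of duplicates. The 5 tally lines that name no gene were left out of library sizes. The reads that did not align ran from 18.0% to 90.3% of a library. Groups came from the labels, and the isolated fraction of water mouse 72 was not analysed here. Libraries of 1 group correlated at 0.92 to 0.99 and none was a copy of another.

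Counts were fitted with edgeR 4.0.16 in R 4.3.3 (TMM scaling, filterByExpr, quasi-likelihood test, Benjamini-Hochberg adjustment over all genes tested, threshold 0.05). Fits were made for ethanol within each fraction, for fraction averaged over treatments, and for the slope on the mean log2 CPM of Aldh1l1, Aldoc and Slc1a3 centred within groups (prior count 2). CPM uses the sum over genes, and log2 values of libraries use TMM. Alternatives were DESeq2 1.42.0, limma 3.58.1, RLE and reference scaling, no filter, thinned counts, other reference genes, a mouse block and left-out libraries. Fits were tested on simulated data. The members and all lists were chosen with earlier results of these data known. The text names the members, the 3 references, the 3 genes most correlated with each member (at least 20 counts a library on average), and up to 4 genes of each related list with the lowest p between fractions. The p-values for ethanol in homogenates measure the spread between mice. Those between fractions measure the spread between libraries within a group, although 20 mice gave libraries of both fractions. Those of slopes measure the spread left after the fit on the references. Libraries of both fractions with the same number in their labels were taken to come from the same suspension of 1 mouse. Their deviations correlated at a median of 0.05 over 20 pairs (−0.09 to 0.20), against 0.00 for other pairs. The pairing therefore rests on the numbers. Some genes that the naming rule or the lists would include are not reported here.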

Additional observations from a re-analysis of the deposited data

Results flagged for a closer look

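The isolated library of water mouse 73 stood above the other libraries of its group for several genes by more than Dixon's 95% critical value for 10 samples (0.466), with the gap to the next library given as a share of the group's range. This share was 0.607 for Baalc (318 CPM, next 183), 0.564 for Ppap2b (2503, next 1458), 0.518 for Cspg5 (1109, next 688), 0.483 for Tspan7 (1369, next 942) and 0.494 for the reference Slc1a3 (3651, next 2395). Divided by the 3 references, none of the 4 members stood apart in that library. The Cspg5 ratio to the references in the isolated library of ethanol mouse 60 was the highest of its group with a share of 0.612 (1.13, next 0.968). Only isolated groups were examined by this rule, and the homogenates were not. Chance flags about 1 in 20 groups, and 6 of 34 were flagged here, 5 of them in 1 library and therefore not independent.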

How the results depend on the processing

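Without mouse 73 or the shallow libraries, and with any other alternative except reference scaling, all 7 members kept their direction and call between fractions, and their isolated slopes stayed positive. With the mouse as a replicate block, 5676 genes were higher and 6005 lower between fractions, and no member's call changed. Reference scaling gave 2534 genes higher and 10042 lower between fractions, with 1 member higher and 6 lower, Fam107a at −0.37, Cspg5 at −0.56 and Lxn at −0.20, and Cspg5 at 0.0141 for ethanol in the isolated fraction. Counts thinned to the smallest library gave 4168 genes lower, with fewer genes tested. Without the 2 libraries farthest in the references, isolated slopes called 251 genes positive and 457 negative. Homogenate slopes called 8 genes positive and 2 negative with RLE, including 1 member (Cspg5 0.74), and 111 and 36 with the rest of the astrocyte list as reference, including 1 member (Ppap2b 0.91; Gpm6a −0.15). Without the homogenate of water mouse 68, an alternative chosen after seeing the data, they called 8 positive and 6 negative, 1 member (Cspg5 0.71, edgeR FDR 0.04999) among them, and Gpm6a was at −0.0286. The causes of these shifts were not tested. Lxn, near 0 in homogenates, was at 0.00286 without a filter, 0.000716 with reference scaling and 0.00202 with DESeq2. Leaving out each homogenate in turn moved Lxn from −0.0397 to 0.0534 and called 0 genes each time. The reads behind Lxn (17 to 168 in an isolated library) limit its precision.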

Other observations

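Some homogenates carried extreme values of single members. Gpm6a was at 691 CPM in the homogenate of water mouse 68, against 1040 for the next lowest. Lxn was at 12.8 CPM in water mouse 70, against 15.8 for the next lowest, and at 25.4 CPM in water mouse 72, against 19.5 for the next highest. In homogenates, all 10 oligodendrocyte markers were below 0 for ethanol (median log2 fold change −0.32) with none called by edgeR, and their summed CPM ran from 1689 to 9306 in water and from 925 to 6746 in ethanol libraries.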
